A study of Rattus norvegicus with 12 samples.

Results

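The ventral prostate of rats given a single high dose of 17β-estradiol was compared directly with the ventral prostate of castrated rats. The comparison used 6 of the 12 arrays of the study, 3 of each group, and covered 14506 genes. These came from the 15310 of 29214 rows of the value table that carried exactly 1 gene symbol. The study's design states that the procedures differ in their effect on epithelial apoptosis, and this comparison sets 2 of them side by side.

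All animals were male Wistar rats 90 days old, and tissue was taken 3 days after treatment. The estradiol group kept its testes and received 17β-estradiol at 25 mg/kg in corn oil. The castrated group lost its testes through a scrotal incision under ketamine at 150 mg/kg and xylazine at 10 mg/kg, and the labels name no oil for it. The combined group had both the operation and the dose. Control rats were intact and received vehicle alone. No sham operation is named for any group, so the operation, its anaesthesia and the loss of the testes cannot be told apart here. The design names more rats than arrays and does not say whether an array held 1 animal or a pool, so the p-values reflect array-to-array spread that may be partly technical. Values are expression levels on a scale taken as log2, on which a difference of 1 is 2-fold.

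Luminal cells of the ventral prostate secrete proteins under androgen control, and the gland regresses when testicular androgen is withdrawn. Castration removes the source of that androgen. A high dose of oestrogen suppresses pituitary gonadotropins, which lowers testicular androgen output, and it also acts directly on oestrogen receptors in stroma and epithelium. On the control arrays the ventral prostate's own secretory transcripts were abundant, with probasin (Pbsn) at 11.20 ± 0.61 and Andpro at 12.73 ± 0.09 (SD, n = 3 each).

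Estradiol arrays 1 and 2 stood apart from the rest. The standard deviation of their values over all rows was 1.93 and 2.01, against 2.24 to 2.30 on the castrated arrays and 2.27 on estradiol array 3. Set against the castrated mean, estradiol array 1 had a median difference of 0.65 in the dimmest of 10 equal bins of genes and -0.76 in the brightest. Estradiol array 2 had 0.56 and -0.24 in the same bins, and estradiol array 3 had -0.0096 and -0.0052. After quantile normalization, which gives every array the same distribution, the 3 estradiol arrays together had 0.05 in the dimmest bin and -0.16 in the brightest. Within-group correlations averaged 0.927 to 0.951 for the estradiol arrays and 0.984 to 0.989 for the castrated arrays. Most gene lists and most genes described array by array are therefore given on the deposited values, after quantile normalization, and with estradiol array 3 alone. A single difference in parentheses after a gene is on deposited values.

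**Figure D1:**
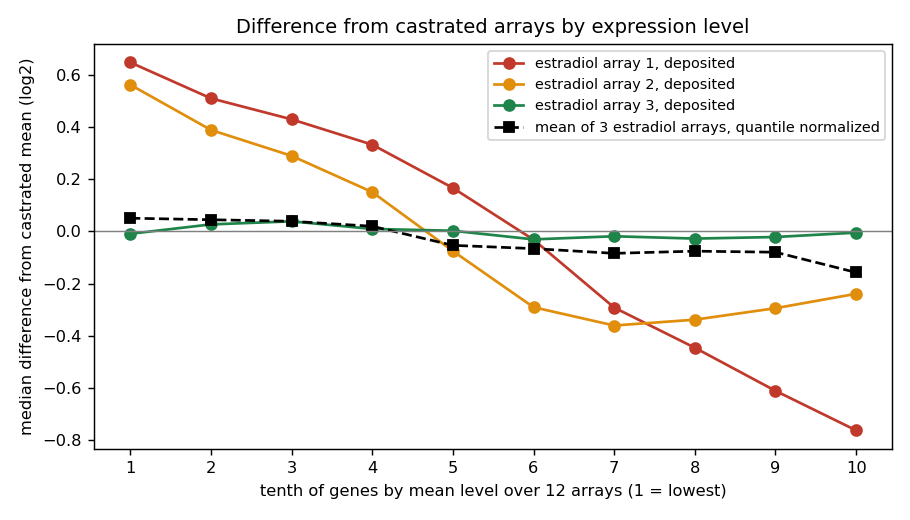
Median difference from the castrated mean (log2, vertical axis) in 10 equal bins of the 14506 genes ordered by mean level over 12 arrays (horizontal axis), for each estradiol array on deposited values and for the mean of the 3 arrays after quantile normalization. Arrays 1 and 2 run from 0.65 and 0.56 in the dimmest bin to -0.76 and -0.24 in the brightest, and array 3 stays near 0.

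No gene passed the test at a false discovery rate of 0.05 (limma, 0 of 14506 genes, percent called 0). The smallest adjusted p was 0.0792, shared by Cd34, Rnase4, Fbxo36, Ehd4 and Ccng2, all lower with estradiol. At an unadjusted p under 0.05, 1949 genes were higher with estradiol (13.4%) and 2007 lower (13.8%). Quantile normalization likewise gave 0 genes, with 2479 at an unadjusted p under 0.05. The adjusted p of 0.0792 rests on the spread of all 4 groups. A limma fit on only the 6 compared arrays also gave 0 genes, with a smallest adjusted p of 0.454. That smaller fit had 1421 genes at an unadjusted p under 0.05, 698 higher and 723 lower. In the fit of all 4 groups, the median 95% interval of a difference reached 0.42 to either side. For 11332 genes (78.1%) the whole interval lay within a 2-fold change in either direction. These intervals assume the same spread in all 4 groups, while within-group correlations were lowest for the estradiol arrays. They also rest on deposited values, so they may be too narrow and cannot exclude larger differences.

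The count of genes called depended on the estradiol arrays. Without estradiol array 3, 5417 genes passed, and without estradiol array 2 only Pdlim3 did. With estradiol array 3 as the sole estradiol array, 6 genes passed: Aox3, Gpx3, Hpx, Msmb, Pdlim3 and Semg1, all higher. In that fit the lone array is assumed to vary like the arrays of the other groups. Array quality weights gave 1627 genes on deposited values and 2, Gpx3 and Pdlim3, after quantile normalization. The weights of estradiol arrays 1, 2 and 3 were 0.088, 0.69 and 0.19 on deposited values. After quantile normalization they were 0.079, 0.27 and 0.83. Among the estradiol arrays, array 2 thus counted most in the first fit and array 3 in the second. With the replicate number as a block on the 6 arrays alone, Aspn, Cd34, Cyp3a9, RT1-M2 and Usp18 passed, all lower.

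As a description that does not rest on a variance estimate, genes were counted whose 3 estradiol arrays lay wholly above or wholly below the 3 castrated arrays. On deposited values 1374 genes were higher without overlap (9.47%) and 1336 lower (9.21%). Dim genes made up most of the first group: in the dimmest of the 10 bins 19.4% were higher without overlap and 0.0690% lower, and in the brightest bin 1.03% were higher and 17.0% lower. Under both scalings, 639 genes were higher (4.41%) and 821 lower (5.66%), 10.1% of all genes together. Of those, 26 were at least 2-fold higher and 92 at least 2-fold lower on deposited values. The shares under both scalings still followed level. In the dimmest bin 5.66% were higher and 0% lower, and in the brightest bin 0.965% were higher and 8.61% lower. Genes named from here on for their gaps, and list members named for not overlapping, were chosen after their values were seen. Some list members were barely separated. The smaller of the gaps under both scalings was -0.019 for Lcn2 and Ifit2, -0.024 for Blnk and -0.012 for Insig1.

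The widest gaps above the castrated arrays belonged to Id4, Gpx3, Aox3, Ucp2, Wfdc3, Slc17a9, Furin, Pdlim3, Slc25a47, Fam25a, Ltbp2 and Cbr3, in that order. They encode proteins of varied function, among them a secreted glutathione peroxidase (Gpx3), an aldehyde oxidase (Aox3), a carbonyl reductase (Cbr3), a mitochondrial carrier of the uncoupling protein family (Ucp2), a proprotein convertase (Furin) and the vesicular nucleotide transporter (Slc17a9).

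Gpx3 had 10.40, 11.09 and 11.98 on the estradiol arrays, against 9.26, 9.32 and 9.63 on the castrated arrays. Every estradiol array was above every castrated array, and array 3 was the highest. The difference was 1.75 (SE 0.34), or 3.37-fold, with an adjusted p of 0.139 by limma. It was 1.98 after quantile normalization (adjusted p = 0.0845) and 2.57 with estradiol array 3 alone (adjusted p = 0.0205). On the combined arrays Gpx3 had 11.87, 11.60 and 11.19, in the range of the estradiol arrays, and on the control arrays 9.64, 8.87 and 8.73, near the castrated ones. Against the shared controls, estradiol raised Gpx3 by 2.08 (limma, adjusted p = 0.00309), and castration gave 0.32 (adjusted p = 0.813).

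Pdlim3, a PDZ and LIM domain protein of the muscle cytoskeleton, had 7.61, 6.80 and 8.24 with estradiol, against 6.25, 5.69 and 6.10 after castration. The groups did not overlap, and array 3 was again the highest. The difference was 1.53 (SE 0.28; limma, adjusted p = 0.134), 1.67 after quantile normalization and 2.22 with estradiol array 3 alone (adjusted p = 0.00261). Combined arrays had 7.15, 7.02 and 6.76 and control arrays 6.15, 6.19 and 6.34. Estradiol raised Pdlim3 against control by 1.32 (adjusted p = 0.0145), while castration gave -0.21 (adjusted p = 0.88). Pdlim3 was the smooth muscle marker with the highest difference of its list, whose median was -0.35.

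Id4, an inhibitor of basic helix-loop-helix transcription factors, differed in that the control level lay above both treatments. It had 8.72, 8.56 and 8.80 with estradiol, against 7.72, 7.77 and 7.43 after castration, with 9.0, 9.22 and 8.94 on the control arrays. The estradiol arrays were close together here, and the gap to the castrated arrays was wide. The difference was 1.05 (SE 0.18; limma, adjusted p = 0.0955) and 1.29 after quantile normalization (adjusted p = 0.0681), and 1.15 with estradiol array 3 alone. Castration lowered Id4 against control (-1.41, adjusted p = 0.000411), and estradiol gave -0.36 (adjusted p = 0.181).

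Wfdc3, a secreted protein with the whey acidic protein domain found in protease inhibitors, had 7.99, 9.42 and 8.77 with estradiol, against 7.37, 7.06 and 6.18 after castration. Both groups lay far below the control arrays at 11.55, 11.45 and 11.37. The difference was 1.86 (SE 0.37), or 3.62-fold (limma, adjusted p = 0.139), with 2.05 after quantile normalization and 1.90 with estradiol array 3 alone. Both treatments lowered Wfdc3 against the shared controls, estradiol at -2.73 (adjusted p = 0.000747) and castration at -4.59 (adjusted p = 9.17e-06).

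Aox3 had 6.90, 6.55 and 8.13 with estradiol, against 5.91, 5.29 and 5.67 after castration, and the control arrays at 7.01, 7.26 and 6.45 overlapped the estradiol arrays. The difference was 1.57 (SE 0.34; limma, adjusted p = 0.143), 1.62 after quantile normalization and 2.50 with estradiol array 3 alone (adjusted p = 0.0183). Ucp2, Furin and Cbr3 had control means above both treatments, as Id4 and Wfdc3 did, with differences of 1.09, 1.11 and 0.84. Slc17a9 and Ltbp2 had control means between the treatments, at differences of 1.33 and 0.76. Fam25a owed much of its difference of 1.35 to estradiol array 1, which had 9.06 where arrays 2 and 3 had 6.77 and 6.94; the castrated arrays had 6.14 to 6.30. With estradiol array 3 alone the Fam25a difference was 0.70. Among these 12 genes the combined mean was nearer the estradiol mean for 7. Over all 639 genes higher without overlap under both scalings it was nearer for 92 (14.4%), and over all genes tested for 25.2%, so the 12 genes do not stand for the larger set.

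**Figure D2:**
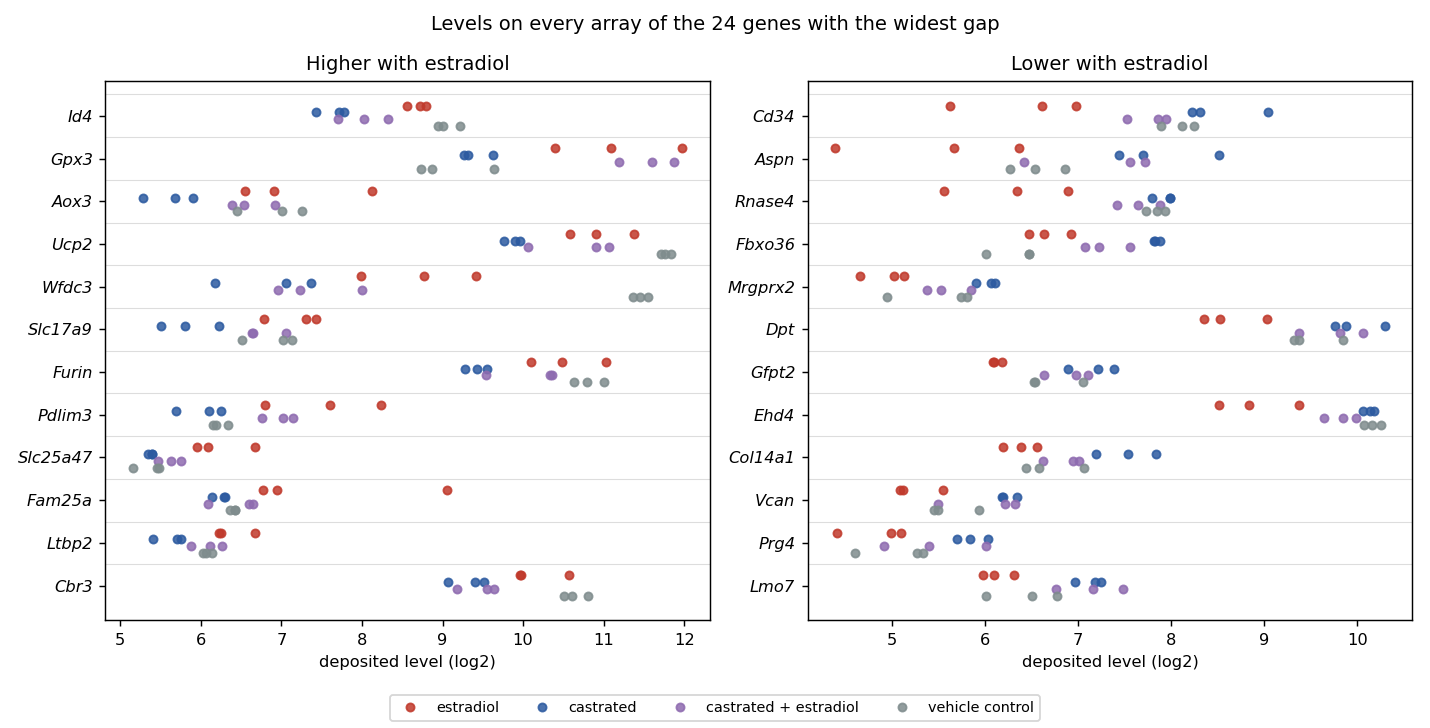
Deposited level (log2, horizontal axis) on every array for the 12 genes with the widest gap above and the 12 with the widest gap below the castrated arrays, from the top down, with points coloured by group. Red estradiol points and blue castrated points do not overlap in any row. For Gpx3 the combined arrays lie with estradiol, and for Cd34 and Rnase4 the combined and control arrays lie nearer the castrated arrays.

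The widest gaps below the castrated arrays belonged to Cd34, Aspn, Rnase4, Fbxo36, Mrgprx2, Dpt, Gfpt2, Ehd4, Col14a1, Vcan, Prg4 and Lmo7. Of these, asporin (Aspn), dermatopontin (Dpt), type XIV collagen (Col14a1), versican (Vcan) and lubricin (Prg4) are extracellular matrix components. Cd34 is a sialomucin of endothelial cells and of some stromal cells. For 11 of the 12 the combined mean was nearer the castrated mean, as it was for 85.6% of the 821 genes lower without overlap and 74.8% of all genes tested.

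Cd34 had 5.63, 6.62 and 6.98 on the estradiol arrays, against 8.23, 9.04 and 8.31 on the castrated arrays. All 3 estradiol arrays were more than 1 log2 unit below the lowest castrated array. The difference was -2.12 (SE 0.30), a level 4.34-fold lower with estradiol (limma, adjusted p = 0.0792). After quantile normalization it was -2.07 (limma, adjusted p = 0.0969), and with estradiol array 3 alone -1.55. With the replicate block on the 6 arrays, added after the data were seen, the adjusted p was 0.0225 by limma. Combined arrays had 7.95, 7.52 and 7.86 and control arrays 8.25, 7.89 and 8.11. Estradiol lowered Cd34 against control (-1.68, adjusted p = 0.00539), and castration gave 0.44 (adjusted p = 0.597).

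Asporin (Aspn), a small leucine-rich protein that binds collagen, had 4.40, 5.67 and 6.37 with estradiol, against 7.70, 7.44 and 8.52 after castration. The estradiol arrays spread over almost 2 units, and the lowest castrated array was still above them all. Its difference of -2.41 (SE 0.45) was the lowest of all genes tested, with an adjusted p of 0.139 by limma and 0.015 with the replicate block on the 6 arrays. It was -2.47 after quantile normalization and -1.51 with estradiol array 3 alone. The control arrays had 6.86, 6.54 and 6.27, between the group means. Neither treatment passed against control, at -1.07 for estradiol (adjusted p = 0.136) and 1.33 for castration (adjusted p = 0.126).

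Rnase4, a secreted ribonuclease, had 5.56, 6.34 and 6.89 with estradiol, against 7.80, 7.99 and 7.99 after castration. Ehd4, an endocytic recycling ATPase, had 8.51, 8.83 and 9.37 with estradiol, against 10.18, 10.06 and 10.14 after castration. In both, the castrated arrays lay close together with the controls, at 7.94, 7.74 and 7.85 for Rnase4 and 10.07, 10.26 and 10.16 for Ehd4, and estradiol array 1 was the lowest. The differences were -1.66 (SE 0.26) and -1.22 (SE 0.19), both with an adjusted p of 0.0792 by limma. After quantile normalization they were -1.64 and -1.03, and with estradiol array 3 alone -1.04 for Rnase4 and -0.75 for Ehd4. Rnase4 shares its first exons with the angiogenin gene in human and mouse, so its signal may include that transcript.

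Fbxo36 and Ccng2 had the opposite relation to control. Fbxo36, an F-box protein, had 6.48, 6.63 and 6.93 with estradiol, against 7.82, 7.83 and 7.89 after castration, with controls at 6.02, 6.48 and 6.48. Ccng2, which encodes cyclin G2, an inhibitor of cell cycle progression, had 7.12, 7.05 and 7.21 with estradiol, against 8.12, 8.29 and 7.96 after castration, with controls at 6.18, 5.95 and 6.29. The differences were -1.17 (SE 0.18) and -1.0 (SE 0.16), both with an adjusted p of 0.0792 by limma. After quantile normalization they were -1.05 and -0.80, and with estradiol array 3 alone -0.92 for each. Castration raised both against control, Fbxo36 by 1.52 (adjusted p = 0.000277) and Ccng2 by 1.99 (adjusted p = 9.17e-06). Estradiol raised Ccng2 by 0.99 (adjusted p = 0.00286), and Fbxo36 differed by 0.35 (adjusted p = 0.203).

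The promoters of Gpx3 and Cd34 are shown because these genes passed in opposite directions in some fits and because they were searched for hormone response elements. They run from 250 bases before to 50 after the start in RefSeq, build GRCr8, and both lie on the plus strand, Gpx3 at chr10:39529085-39529384 and Cd34 at chr13:109008536-109008835. No letters are in capitals because neither consensus searched was found in them.
Gpx3: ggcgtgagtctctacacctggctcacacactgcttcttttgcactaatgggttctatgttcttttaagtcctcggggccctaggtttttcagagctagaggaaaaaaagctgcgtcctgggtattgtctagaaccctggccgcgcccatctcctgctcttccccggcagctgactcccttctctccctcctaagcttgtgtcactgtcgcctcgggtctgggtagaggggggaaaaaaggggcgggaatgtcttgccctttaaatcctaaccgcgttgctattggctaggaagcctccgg
Cd34: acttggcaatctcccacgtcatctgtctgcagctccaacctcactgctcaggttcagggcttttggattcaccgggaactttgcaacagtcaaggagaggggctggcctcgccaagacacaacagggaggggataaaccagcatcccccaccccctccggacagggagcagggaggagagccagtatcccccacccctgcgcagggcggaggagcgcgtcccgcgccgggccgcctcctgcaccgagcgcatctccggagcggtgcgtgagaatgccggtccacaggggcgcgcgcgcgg
The consensus palindromes searched, on both strands, were GGTCANNNTGACC for the oestrogen response element and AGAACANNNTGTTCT for the androgen response element. The first was found in 7 of 27457 promoters (0.0255%) and the second in 2 (0.00728%). Promoters were matched for 11950 of the 14506 genes, of which 3 held the oestrogen element and 0 the androgen element. Neither motif was found among the 522 matched genes higher with estradiol without overlap under both scalings, or among the 685 lower ones. With so few matches among all tested genes, the search cannot tell these sets from the rest. No match says only that these letters are not in this window.

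Gene lists are described by their counts and medians beside those of all genes, which had a median difference of -0.01, or -0.03 after quantile normalization. No list held a gene that passed. Here and below, lower and higher refer to the castrated arrays and not to control. The shares of all genes given beside them are not matched for level. In bins 6 to 10, counted from the dimmest, 6.76% to 9.52% of genes were lower without overlap under both scalings. Bright lists included those of regression, cholesterol and glycolysis genes, with median levels of 8.45, 8.02 and 7.68, against 6.17 for all genes. Stromal and vascular marker lists had medians below 0 on all 3 scales. Of 26 fibroblast and matrix genes measured, 6 were lower and 1 higher without overlap under both scalings (23.1% and 3.85%, against 5.66% and 4.41% of all genes). Their median was -0.64, with -0.45 after quantile normalization and -0.31 with estradiol array 3 alone. Of 22 endothelial genes, 5 were lower and 1 higher (22.7% and 4.55%), at a median of -0.28, with -0.42 after quantile normalization and -0.29 with array 3 alone. Endothelial list means per array were 5.68 to 5.77 with estradiol, 5.99 to 6.14 after castration and 5.99 to 6.19 on the control arrays. In whole tissue, fewer cells of a type and less RNA per cell cannot be told apart.

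Lumican (Lum), which binds collagen fibrils, had 6.06, 5.84 and 6.55 with estradiol, against 7.47, 7.06 and 7.86 after castration. Decorin (Dcn), of the same family, had 10.06, 11.04 and 11.22 with estradiol, against 11.71, 11.94 and 11.99 after castration. Neither overlapped, and their differences were -1.31 (SE 0.26; limma, adjusted p = 0.139) and -1.11 (SE 0.25; adjusted p = 0.143). With estradiol array 3 alone they were -0.92 and -0.66, and after quantile normalization -1.30 and -0.93. Type XIV collagen (Col14a1, -1.14), periostin (Postn, -0.87), lysyl oxidase (Lox, -0.85), which crosslinks collagen, and the mesenchymal receptor Pdgfra (-0.67) also lay wholly below. The fibrillar collagens did not follow. Col1a1 had 8.77, 7.36 and 7.27 with estradiol, against 7.77, 7.15 and 7.99 after castration, and the groups overlapped. Its difference of 0.16 was 0.41 after quantile normalization and -0.37 with estradiol array 3 alone, and that of Col3a1, 0.07, became 0.21 and -0.27.

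Among endothelial genes, Pecam1, an adhesion molecule of endothelial junctions, had 6.37, 6.16 and 6.30 with estradiol, against 7.01, 6.80 and 7.17 after castration. All estradiol arrays were below, with little spread among them. The difference was -0.72 (SE 0.16; limma, adjusted p = 0.143), -0.66 after quantile normalization and -0.69 with estradiol array 3 alone. The angiopoietin receptor Tek (-0.96), the VEGF receptor Kdr (-0.26) and the secreted Egfl7 (-0.46) also lay wholly below. Nos3, the endothelial nitric oxide synthase, was wholly above at 0.17. Vegfa, the ligand, differed by 0.13 with overlapping arrays. Of 18 smooth muscle markers, 3 were lower without overlap (16.7%) and only Pdlim3 higher (5.56%), with a median of -0.35, -0.15 after quantile normalization and -0.25 with array 3 alone. The smooth muscle actin Acta2 had 11.27, 11.04 and 11.33 with estradiol, against 11.73, 11.07 and 11.70 after castration, which overlapped.

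**Figure D3:**
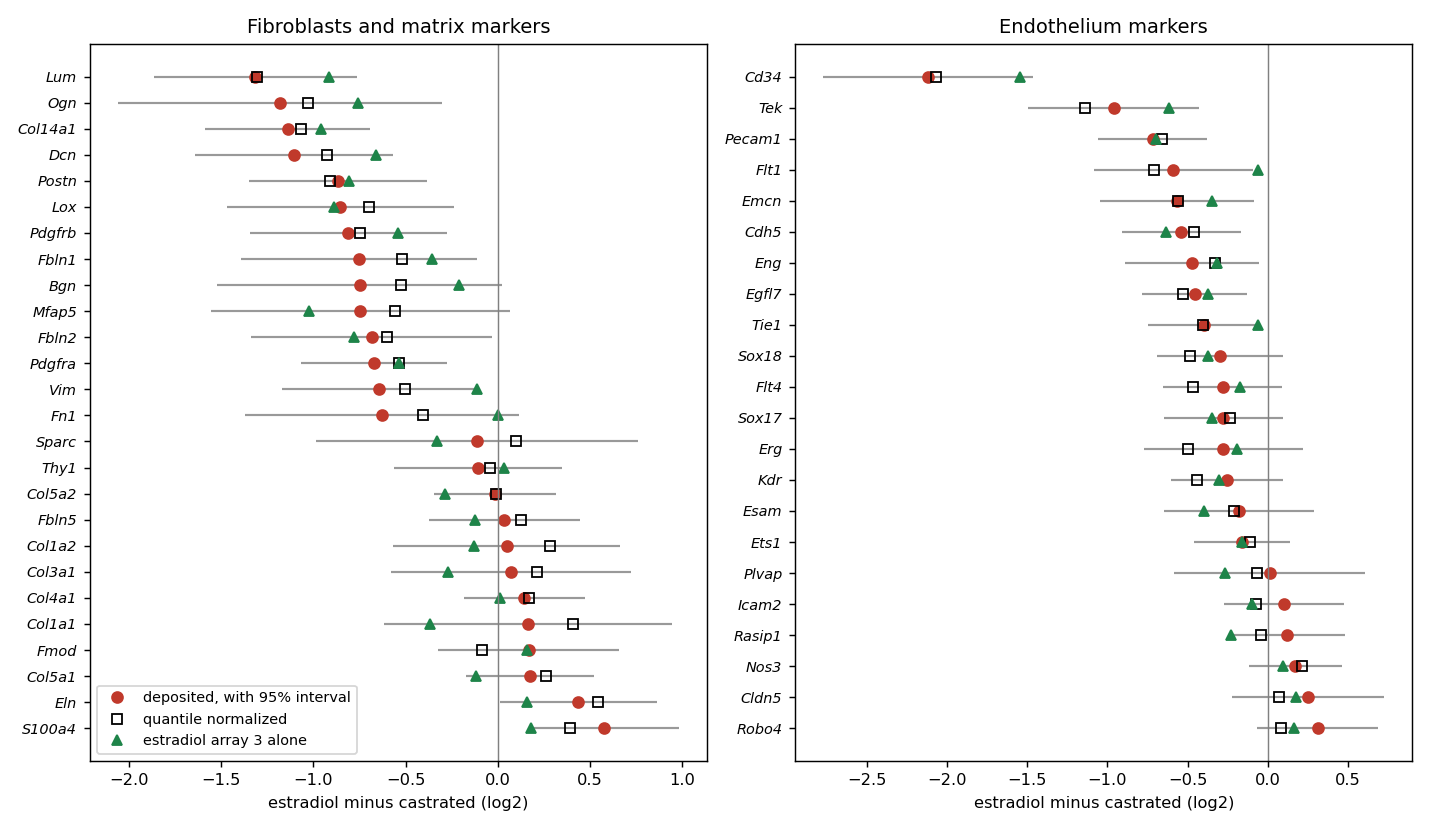
Estradiol minus castrated difference (log2, horizontal axis) for each of the 26 fibroblast and matrix markers and 22 endothelial markers, with the 95% limma interval on deposited values, the value after quantile normalization and the value with estradiol array 3 alone. Lum, Col14a1, Dcn, Cd34, Tek and Pecam1 lie below 0 under all 3, and fibrillar collagens such as Col1a1 lie on both sides of 0.

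Markers of immune cells differed by type. All 28 macrophage and dendritic cell genes had a lower mean with estradiol, at a median of -0.71, with -0.62 after quantile normalization, yet only 4 did not overlap under both scalings (14.3%) and the median with estradiol array 3 alone was -0.13. Those 4 were the endotoxin co-receptor Cd14 (-0.66), the immunoglobulin receptors Fcgr1a (-0.69) and Fcgr2b (-0.94) and the costimulatory ligand Cd86 (-0.30). Macrophage list means per array were 6.77 to 7.68 with estradiol and 7.46 to 8.09 after castration. Both ranges lay above the control arrays, at 6.26 to 6.64. Cd68, a lysosomal glycoprotein of macrophages, had 7.21, 6.15 and 8.24 with estradiol, against 7.88, 7.31 and 8.68 after castration. Estradiol array 3 lay within the castrated range, and the difference of -0.76 was -0.62 after quantile normalization and 0.28 with that array alone. Of 24 neutrophil and mast cell markers, 17 had a higher mean, with 3 higher (12.5%) and 2 lower (8.33%) without overlap under both scalings. Their median of 0.31 became -0.0062 after quantile normalization and -0.0058 with estradiol array 3 alone. The mast cell carboxypeptidase Cpa3 was wholly below at -1.22 (SE 0.31, limma, adjusted p = 0.143). The mast cell tryptase Tpsab1 was wholly above at 0.52, as was Hdc at 0.50. Of 27 lymphocyte markers 1 was higher without overlap (Cd8b, 0.56) and 1 lower (Blnk, -0.83), a share of 3.70% each and below that of all genes.

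Of 35 chemokines and receptors, 2 were lower (5.71%) and 1 higher (Ccr7, 0.28; 2.86%) without overlap, shares near or below the 5.66% and 4.41% of all genes, at a median of -0.05. The monocyte chemokine Ccl2 had 5.80, 6.09 and 6.27 with estradiol, against 6.87, 6.99 and 7.80 after castration. The groups did not overlap, and the difference was -1.17 (SE 0.27; limma, adjusted p = 0.143), with -1.16 after quantile normalization and -0.95 with estradiol array 3 alone. The chemokine Cxcl16 was also wholly below (-0.75). Of 36 interferon response and antigen presentation genes, 32 had a lower mean, 5 of them without overlap under both scalings (13.9%), at a median of -0.35, with -0.37 after quantile normalization and -0.13 with array 3 alone. These were the guanylate binding proteins Gbp2 (-0.92) and Gbp5 (-1.01), Irf9 (-0.82), a subunit of the interferon-activated transcription complex, Ifit2 (-0.86) and Usp18 (-1.67), which removes the ubiquitin-like Isg15. Usp18 had 4.84, 5.47 and 6.46 with estradiol, against 6.51, 6.88 and 8.39 after castration, so that array 3 of each group was its highest. It had an adjusted p of 0.143 by limma and 0.0309 with the replicate block on the 6 arrays, and the difference was -0.80 with estradiol array 3 alone. RT1-M2, named as a class I histocompatibility gene of a multigene family, had 5.69, 6.50 and 7.99 with estradiol, against 7.81, 8.23 and 9.42 after castration. Its groups overlapped, at a difference of -1.76 with an adjusted p of 0.143 by limma and 0.0287 with the replicate block. It was -0.50 with estradiol array 3 alone, and related copies may share its probes. Complement components had a median of -0.42 over 19 genes, with 1 lower without overlap (5.26%), the alternative pathway regulator Cfp (-0.62). For interferon, complement and macrophage lists alike, the median with estradiol array 3 alone lay between -0.13 and -0.10, and the part of arrays 1 and 2 in these lists was not tested.

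**Figure D4:**
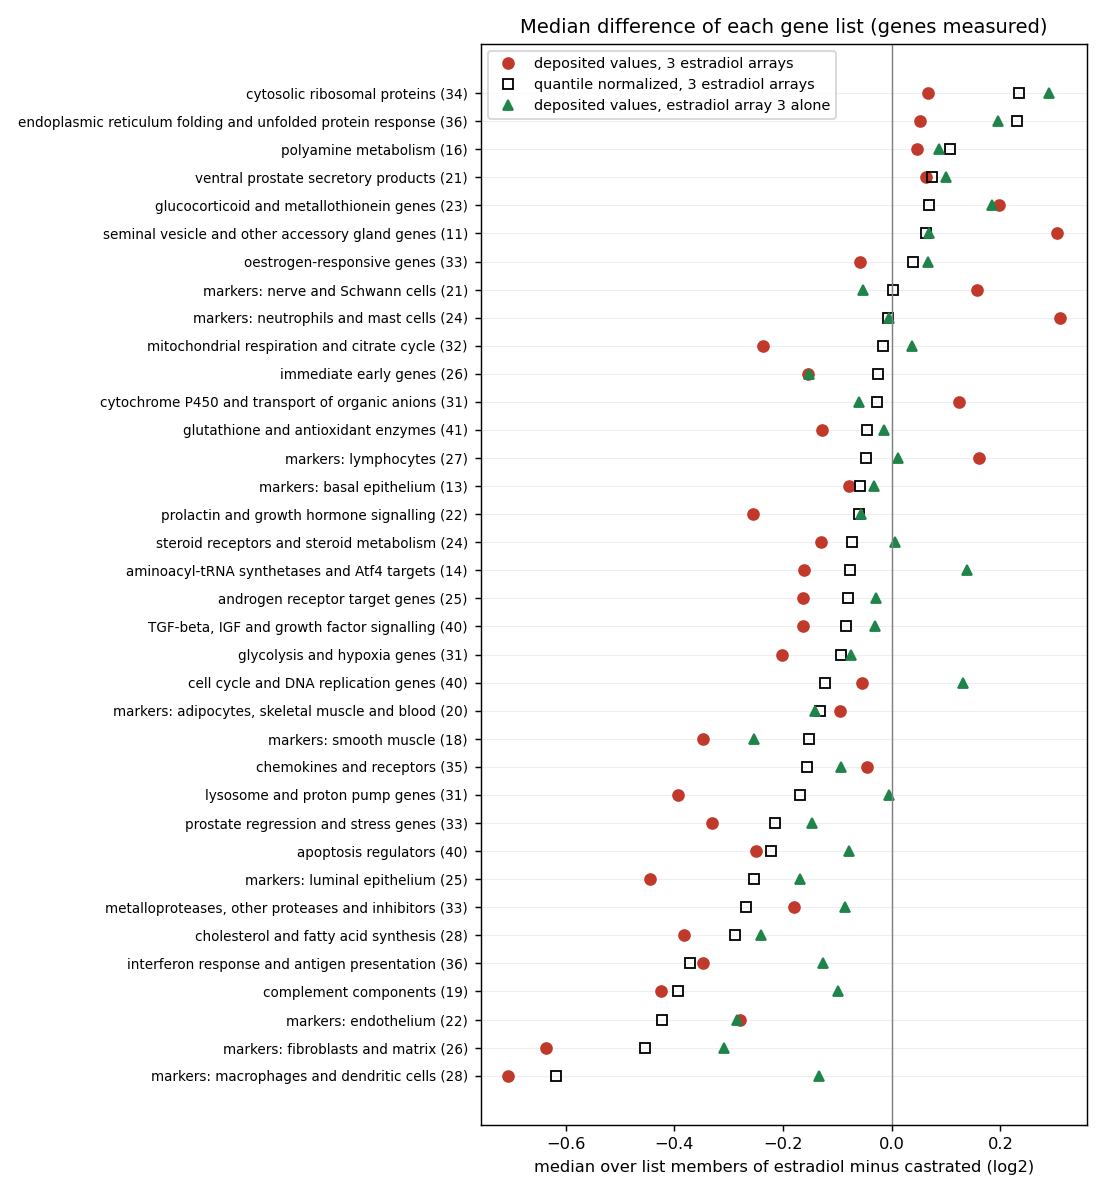
Median difference (log2, horizontal axis) over the measured members of each of the 36 gene lists, on deposited values, after quantile normalization and with estradiol array 3 alone. Macrophage genes have the lowest median on deposited values (-0.71) and fibroblast and endothelial genes are the lowest with array 3 alone (-0.31 and -0.29), while ribosomal proteins are the highest after quantile normalization (0.23).

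Apoptosis regulators held 10 of 40 members lower without overlap under both scalings (25.0%) and 3 higher (7.5%), at a median of -0.25, with -0.22 after quantile normalization and -0.08 with array 3 alone. The lower members included both promoters and inhibitors of death. The anti-apoptotic Bcl2 had 5.95, 7.77 and 7.92 with estradiol, against 8.30, 8.95 and 8.74 after castration. Casp4, an inflammatory caspase, had 4.33, 4.40 and 5.29 with estradiol, against 5.71, 6.01 and 5.98 after castration. Every estradiol array was lower in both, with differences of -1.45 (SE 0.41) and -1.23 (SE 0.26), each at an adjusted p of 0.143 by limma. With estradiol array 3 alone they were -0.74 for Bcl2 and -0.61 for Casp4, and after quantile normalization -1.37 and -1.45. The death ligand Tnfsf10 (-1.31), the pro-apoptotic BH3 protein Bcl2l11 (-0.61), the death receptor Fas (-0.33) and the caspase Casp12 (-0.38) lay wholly below as well. The 3 higher members were the pro-apoptotic Bcl2 family genes Bax (0.44), Bad (0.34) and Bid (0.28). Bax owed its difference to estradiol array 1 at 7.95, where arrays 2 and 3 had 6.86 and 6.87 and the castrated arrays 6.86, 6.70 and 6.82, and with array 3 alone it was 0.08.

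Of 33 prostate regression and stress genes, 7 were lower and 0 higher without overlap (21.2%), at a median of -0.33, with -0.21 after quantile normalization and -0.15 with array 3 alone. Clusterin (Clu), a chaperone that marks the regressing gland, had 12.24, 12.25 and 12.73 with estradiol, against 12.92, 12.62 and 12.85 after castration, with controls at 11.03, 10.67 and 10.58. Estradiol array 3 lay within the castrated range. Both treatments raised Clu against the shared controls, estradiol by 1.65 (adjusted p = 0.000151) and castration by 2.04 (adjusted p = 1.71e-05), and they differed from each other by -0.39 (SE 0.18; limma, adjusted p = 0.18). That difference was -0.23 after quantile normalization and -0.06 with estradiol array 3 alone. Ndrg1, a stress and hypoxia response gene, had 7.94, 8.55 and 8.65 with estradiol, against 9.61, 9.10 and 9.11 after castration, a difference of -0.89 without overlap (limma, adjusted p = 0.143), with -0.66 after quantile normalization and -0.62 with estradiol array 3 alone.

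Of 25 luminal markers, 6 were lower without overlap under both scalings (24%), at a median of -0.45, with -0.25 after quantile normalization and -0.17 with array 3 alone. Prom1, a membrane protein of epithelial protrusions, had 7.71, 9.15 and 9.13 with estradiol, against 9.71, 9.98 and 9.76 after castration. Array 1 was far below the others, and all 3 were below the castrated arrays, at -1.15 (SE 0.32; limma, adjusted p = 0.143), with -0.95 after quantile normalization and -0.68 with estradiol array 3 alone. E-cadherin (Cdh1, -0.56), occludin (Ocln, -0.55), the splicing regulator Esrp2 (-0.65) and the membrane serine proteases St14 (-0.57) and Prss8 (-0.54) lay wholly below by small margins. Bright genes as a whole were lower on estradiol arrays 1 and 2, and the luminal list had a median level of 9.97, against 6.17 for all genes. Luminal list means per array were 9.28 to 9.57 with estradiol, 9.64 to 9.90 after castration and 9.21 to 9.27 on the control arrays.

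Cholesterol, glycolysis, lysosome and mitochondrial lists had medians below 0 on deposited values, and the polyamine median was near 0. Of 28 cholesterol and fatty acid synthesis genes, 5 were lower and 0 higher without overlap (17.9%), at a median of -0.38, with -0.29 after quantile normalization and -0.24 with array 3 alone. Their list means per array were 7.63 to 8.22 with estradiol and 8.29 to 8.58 after castration. Both ranges lay below the control arrays, at 9.07 to 9.21. Acss2, which makes acetyl-CoA from acetate, had 6.17, 6.15 and 6.27 with estradiol, against 7.10, 6.73 and 7.0 after castration. It did not overlap, at -0.74 (SE 0.15; limma, adjusted p = 0.143), and the value with array 3 alone was -0.67. The sterol enzymes Fdft1 (-0.87) and Nsdhl (-0.89) and the sterol sensor partner Insig1 (-0.67) were also wholly below. Of 31 glycolysis and hypoxia genes, 6 were lower (19.4%), among them Pgk1 (-0.85), Tpi1 (-0.68), Pfkfb4 (-0.74) and the oxygen-regulated factor Hif1a (-0.65), at a list median of -0.20, with -0.09 after quantile normalization. Lysosome and proton pump genes had a median of -0.39 that became -0.17 after quantile normalization and -0.01 with array 3 alone. The 32 genes of mitochondrial respiration and the citrate cycle had a median of -0.24, with -0.02 after quantile normalization and 0.04 with array 3 alone. The 16 polyamine genes had 0.05, 0.11 and 0.09 on the same scales. Of these 16, 0 were higher and 1 lower without overlap under both scalings (6.25%), Arg2 at -0.52.

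The 34 cytosolic ribosomal protein genes had a median of 0.07, with 0.23 after quantile normalization and 0.29 with array 3 alone, and 2 were higher without overlap, Rpl13 (0.94) and Rpl23 (0.48), a share of 5.88% against 4.41% of all genes. Rpl13 had 10.11, 9.31 and 9.73 with estradiol, against 8.99, 8.94 and 8.41 after castration, and it is measured by 7 probe sets, of which the brightest was used. Ribosomal protein genes have many processed copies, so their probes may cross-hybridize. The 36 endoplasmic reticulum genes had 0.05, 0.23 and 0.19 on the same scales. Their 2 non-overlapping members (5.56%) were Pdia5, a protein disulfide isomerase (0.52), and Ssr2, of the translocon-associated complex (0.22). Hspa5, the chaperone BiP, overlapped at -0.10 and became 0.03 after quantile normalization. The 14 aminoacyl-tRNA synthetase and Atf4 target genes lay lower, with a median of -0.16, -0.08 after quantile normalization and 0.14 with array 3 alone, and 0 without overlap.

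The 21 ventral prostate secretory products had a median of 0.06, with 0.07 after quantile normalization and 0.10 with array 3 alone. Under both scalings 0 were higher and 2 lower without overlap (9.52%), the immunoglobulin transporter Pigr (-0.65) and the siderophore-binding Lcn2. Azgp1 had the lowest difference of the list, -1.33 with overlapping arrays (limma, adjusted p = 0.143). It was -1.23 after quantile normalization and -1.54 with array 3 alone. Against control, castration raised Azgp1 by 2.43 (limma, adjusted p = 0.00417), and estradiol gave 1.10 (adjusted p = 0.111). Probasin, a secretory product driven by androgen, had 6.28, 4.82 and 9.71 with estradiol, against 4.96, 4.37 and 4.54 after castration, with controls at 10.50, 11.47 and 11.63. Estradiol array 3 was near the controls, array 2 lay within the castrated range, and the difference was 2.31 (SE 0.94; limma, adjusted p = 0.161), with 2.13 after quantile normalization and 5.09 with array 3 alone. Both treatments lowered Pbsn against the shared controls, estradiol at -4.26 (adjusted p = 0.0164) and castration at -6.57 (adjusted p = 0.000991). Andpro had 9.70, 11.44 and 11.60 with estradiol, against 11.35, 9.72 and 11.47 after castration, with 1 low array in each group and a difference of 0.06 that changed sign in several fits. Odc1, the first enzyme of polyamine synthesis and an androgen target, had 9.84, 10.32 and 10.66 with estradiol, against 9.68, 9.86 and 9.66 after castration. On deposited values it overlapped at 1 array, at 0.54 (SE 0.19, limma, adjusted p = 0.144). After quantile normalization the Odc1 difference was 0.74 without overlap, and with array 3 alone it was 0.92. Over all 25 androgen target genes the median was -0.16, with -0.08 after quantile normalization. The glucocorticoid-shared target Fkbp5 differed by 0.23 with overlapping arrays on deposited values. After quantile normalization the Fkbp5 difference was 0.47 without overlap, and with array 3 alone it was 0.51.

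Estradiol array 3 also had high values for genes that were low on the other arrays. Semg1, a semenogelin of seminal vesicle secretion, had 3.40, 2.62 and 9.46 with estradiol, against 3.03, 3.01 and 2.70 after castration. Msmb, a secreted protein of prostate lobes, had 4.18, 3.61 and 8.47 with estradiol, against 3.78, 3.84 and 4.07 after castration. In both genes array 3 alone was high, and on the 3 combined and 3 control arrays they stayed at 2.75 to 3.43 and 3.54 to 3.92. Their differences of 2.25 (SE 1.2) and 1.52 (SE 0.85) had adjusted p-values of 0.224 and 0.243 by limma, and with array 3 alone they were 6.55 and 4.58. The 11 seminal vesicle and accessory gland genes had a median of 0.07 with array 3 alone. Hpx, the haem-binding plasma protein, was also highest on array 3 (4.25, 4.94 and 5.95 with estradiol, against 4.55, 4.12 and 4.38 after castration). Without that array the Msmb difference was -0.0055, and the part of other accessory gland tissue in array 3 was not tested. Gpx3, Pdlim3 and Aox3 were also highest on array 3, and in these arrays 1 and 2 lay above the castrated arrays as well.

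Among oestrogen-responsive genes, 3 of 33 were higher without overlap under both scalings (9.09%) and 1 lower (3.03%), at a median of -0.06, with 0.04 after quantile normalization. Besides Gpx3 the higher ones were the neuropeptide oxytocin (Oxt, 0.64) and the ligand Wnt4 (0.31). Oxt had 7.08, 6.44 and 5.98 with estradiol, against 5.90, 5.84 and 5.85 after castration, the gap being narrow on array 3, which alone gave 0.12. Car12, a carbonic anhydrase induced by oestrogen in human breast cells, had 6.96, 8.14 and 8.16 with estradiol, against 7.57, 6.67 and 6.36 after castration. Estradiol array 1 lay within the castrated range, at a difference of 0.89 (SE 0.33; limma, adjusted p = 0.15), with 1.03 after quantile normalization and 1.30 with array 3 alone. Both treatments had higher Car12 means than control, and estradiol passed (1.96, adjusted p = 0.00384) while castration did not (1.07, adjusted p = 0.0904). The receptors Esr1 (0.45), Esr2 (-0.29) and Pgr (0.49) all had overlapping arrays, and the Esr2 difference became 0.28 with estradiol array 3 alone. Prlr, the prolactin receptor, had 7.74, 8.84 and 9.30 with estradiol, against 9.63, 9.39 and 9.39 after castration. It did not overlap, at -0.84 (SE 0.29; limma, adjusted p = 0.144), with -0.63 after quantile normalization and -0.17 with array 3 alone.

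Cyp3a9, a steroid-metabolizing cytochrome P450, had 4.05, 5.34 and 3.39 with estradiol, against 6.17, 7.28 and 5.68 after castration, with controls at 3.20, 3.33 and 3.01. All estradiol arrays were below all castrated arrays and above all controls. The difference of -2.12 (SE 0.48), or 4.34-fold lower, had an adjusted p of 0.143 by limma and 0.0101 with the replicate block on the 6 arrays. It was -2.26 after quantile normalization and -2.99 with estradiol array 3 alone. Castration raised Cyp3a9 against control by 3.20 (adjusted p = 0.00155), and estradiol gave 1.08 (adjusted p = 0.153). Of 41 antioxidant genes, 2 were higher (4.88%) and 3 lower (7.32%) without overlap under both scalings. These shares were near the 4.41% and 5.66% of all genes. The list median was -0.13, with -0.05 after quantile normalization and -0.01 with estradiol array 3 alone. Prdx5 (0.94) joined Gpx3 above, and the glutathione transferases Gstm2 (-0.35) and Gstm7 (-0.43) were among those below.

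**Figure D5:**
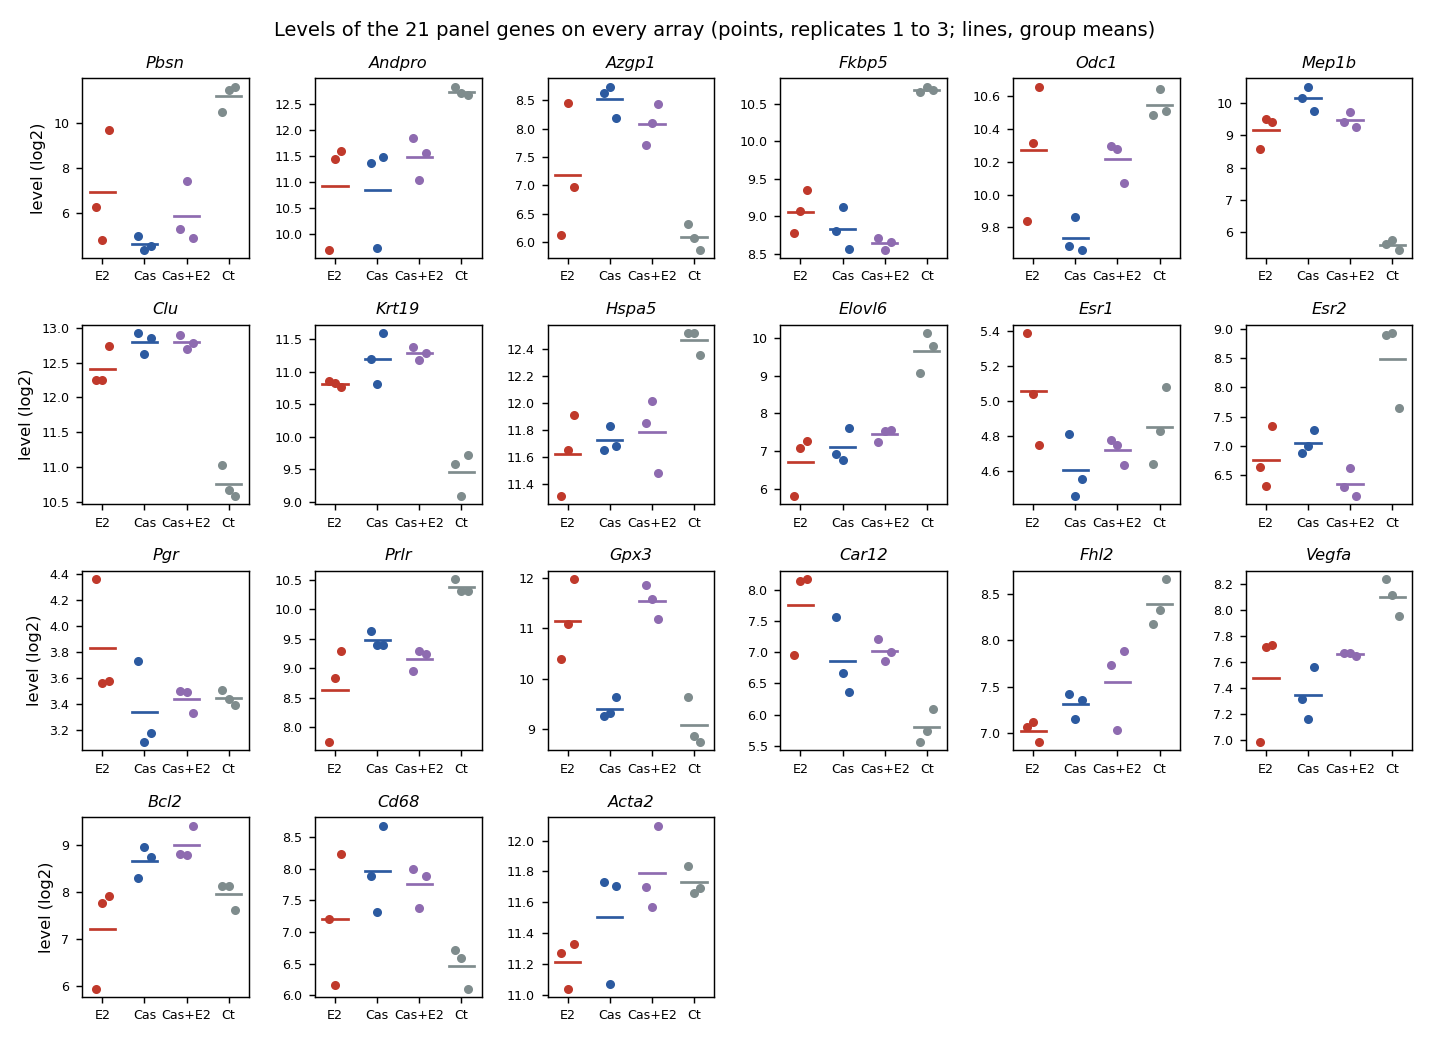
Deposited level (log2, vertical axis, scaled per gene) of the 21 panel genes on every array, with group means as lines, for estradiol (E2), castrated (Cas), combined (Cas+E2) and vehicle control (Ct) groups. Gpx3 shows estradiol and combined arrays above the other groups, Pbsn shows estradiol array 3 apart from arrays 1 and 2, and Clu shows all treated arrays above control.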

How the data were processed

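Affymetrix arrays measured RNA of 12 ventral prostates or pools, 3 arrays in each of 4 groups, from 500 ng of total RNA made into biotinylated cDNA, per the labels' protocols. The authors deposited 1 table of 29214 rows of values taken as log2 expression from their range; Affymetrix Expression Console is named in the submitters' processing notes, with no version; the log base, normalization and genome build used by the authors were not given in the sources used here. The number of arrays limits the precision.

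From the deposited table, 15310 rows had 1 gene symbol, 323 several and 13581 none in the platform annotation, and 15279 matched RefSeq by gene ID. For 527 genes with several probe sets the one with the highest mean over 12 arrays was used; the probe sets of 122 differed in sign. Differences, as estradiol minus castrated, were fitted with limma 3.58.1 (R 4.3.3; lmFit and eBayes, 4 group means over 12 arrays) with Benjamini-Hochberg adjustment over 14506 genes at 0.05; the fit was tested on simulated data. Figures used matplotlib 3.10.9 under Python 3.11.15. An exact permutation test of 3 against 3 arrays cannot give a p below 0.1. Same-numbered estradiol and castrated arrays deviated together in 3 of 3 pairs (correlations 0.144, 0.197 and 0.284). Over all 18 same-numbered pairs across groups, correlations ran from -0.156 to 0.284, with 7 over 0.1. The 36 differently numbered pairs ran from -0.248 to 0.285, with 6 over 0.1. A replicate block on the 6 compared arrays was added after the data were seen, so its p-values are descriptive only.

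The members and gene lists were chosen with earlier results of these data known. Genes were to be named by the largest changes among those passing, by the smallest p in each of 36 lists and by a panel of 22 genes, of which 21 were measured. Because none passed, those with the widest gaps between groups, non-overlapping list members and Bax, Bad, Bid, Col1a1 and Col3a1 were named after their values were seen. Alternatives covered scaling, array weights, filters, variance settings, the replicate block and leaving out arrays.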

Additional observations from a re-analysis of the deposited data

How the results depend on the processing

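The count of genes called was 0, and it moved under 5 kinds of fit. Array quality weights gave 1627 genes, 356 of them at least 2-fold; leaving out estradiol arrays 1 and 2 gave 6, all 6 at least 2-fold; quantile normalization with array weights gave 2, both 2-fold. The replicate block on the 6 arrays, an alternative chosen after seeing the data, gave 5, all 5 at least 2-fold; the block over 12 arrays gave 0, with a smallest adjusted p of 0.0611 by limma and 4140 genes at an unadjusted p under 0.05, and it changed no other call. Leaving out 1 array at a time gave 0 to 5417 genes, and 0 to 977 at least 2-fold; the highest counts were without estradiol array 3. Centring array medians gave 0 genes and moved the median of all genes to -0.14, with 1012 higher and 3108 lower at an unadjusted p under 0.05, against 1949 and 2007 on deposited values.

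Genes higher without overlap numbered 1374 on deposited values, 820 after centring, 857 after quantile normalization, 650 with the dimmest genes left out (10879 kept) and 3097 without estradiol arrays 1 and 2, and 1615 to 3947 when 1 array was left out. Genes lower without overlap numbered 1336 on deposited values, 2038 after centring and 3222 without estradiol arrays 1 and 2, and 1663 to 3538 when 1 array was left out. With fewer arrays fewer values must be separated. The cause of the other moves was not tested.

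Of 3600 values of 157 named genes across 23 alternatives, 3400 kept their direction and their side of the threshold, 174 came to pass and 26 reversed, in 10 genes. Without estradiol arrays 1 and 2, Bub1 was 0.073, Cd68 0.28, Col1a1 -0.37, Col3a1 -0.27, Elovl6 0.17, Esr2 0.28, Hspa5 0.19 and Lep -0.062. With array weights Col1a1 was -0.39 and Col3a1 -0.45, and with quantile normalization added -0.36 and -0.31, with Hspa5 at 0.17. Hspa5 was 0.030 after quantile normalization, and centring gave Andpro -0.058 and Col3a1 -0.051. Leaving out 1 array gave -0.50 to 0.67 for Andpro, -0.32 to 0.43 for Col1a1, -0.36 to 0.33 for Col3a1, -0.66 to 0.073 for Elovl6, -0.24 to 0.059 for Hspa5 and -0.0055 to 2.43 for Msmb. Of 828 list medians across alternatives, 765 stayed within the spread of the estradiol arrays and 63 moved beyond it.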

Other observations

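Proteases and signalling genes outside the comparisons above held further gaps. Of 33 proteases and inhibitors, 5 were lower (15.2%) and 2 higher (6.06%) without overlap under both scalings, against 5.66% and 4.41% of all genes. The matrix metalloprotease Mmp2 (-0.72), the tissue plasminogen activator Plat (-0.95), the sheddase Adam17 (-0.71) and Mep1b (-0.97), a meprin subunit, were wholly below the castrated arrays. Both treatments raised Mep1b against the shared controls, estradiol by 3.56 (limma, adjusted p = 6.78e-06) and castration by 4.53 (adjusted p = 1.25e-06). Mmp2 was below control with estradiol (-0.78, adjusted p = 0.0151), and castration gave -0.06 (adjusted p = 0.965). Caveolin-1 (Cav1, -1.16), the receptor Met (-0.89), the cysteine protease Ctsh (-1.08) and the siderophore-binding Lcn2 (-1.0) were wholly below as well. The growth factor list of Met had 2 of 40 lower (5%) and the lysosome list of Ctsh 2 of 31 (6.45%), near the share of all genes. The metallothionein Mt2A (0.63), the transcription factor Elf5 (0.52) and the cytokine signalling inhibitor Cish (0.50) were wholly above. None of these differences from the castrated arrays passed the test by limma. Apart from Mep1b, a panel gene, these genes were named after their values were seen.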
